A study of Mus musculus with 8 samples.

Results

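Transcripts of the proteasome genes were followed in mouse microglia, macrophages that live in the brain, after injury of the optic nerves. Members were the protein-coding mouse genes whose symbol starts with Psma, Psmb, Psmc, Psmd or Psme followed by a digit. The rule found 45 of the 26062 genes in the table. They were 14 core particle genes, 17 regulatory particle genes, the 3 immunoproteasome genes Psmb8, Psmb9 and Psmb10, 4 activators, 3 assembly chaperones, 2 tissue-restricted forms and 2 other matches. The other matches were Psmc3ip, a meiotic recombination factor that is no proteasome subunit, and Psme2b, a near-identical copy of Psme2. The remaining 41 genes outside these matches and the tissue-restricted forms are called the 41 proteasome genes below.

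There were 2 libraries from uninjured mice, 3 from mice whose optic nerves had been crushed on both sides 1 day before, and 3 from mice crushed 3 days before. All were wild type C57BL/6J males of 2 to 3 months. Cells of the lateral geniculate nucleus (LGN), the thalamic target of retinal axons, were purified on magnetic beads against CD11b, a surface protein that other myeloid cells carry too. Whether each library holds a single mouse or several is not in the labels, so the p-values reflect the spread of these 8 libraries and that spread may be technical. Injured and uninjured mice differ in surgery as well as in nerve damage, and the labels name no sham operation.

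The proteasome degrades proteins that carry ubiquitin chains. Its barrel-shaped core particle is built of outer alpha rings and inner beta rings, and Psmb5, Psmb6 and Psmb7 encode the beta subunits that cut peptide bonds. The regulatory particle binds the ubiquitin chain, removes it, unfolds the protein with a ring of ATPases and feeds it into the core. Interferon-gamma induces Psmb8, Psmb9 and Psmb10, which replace the constitutive catalytic subunits in newly built cores, and the resulting immunoproteasome is known for making peptides for MHC class I. Microglia and other macrophages express these genes.

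Library totals were 17533499 to 17994861 counts in uninjured mice, 12700098 to 15489477 at 1 day and 13756487 to 14993580 at 3 days. All 8 microglial markers were detected, and their summed level was 7020 to 9165 CPM (read counts scaled to a common library size) in uninjured mice, 10070 to 12660 at 1 day and 6633 to 8203 at 3 days. Single markers differed more than their sum. Itgam, which encodes the CD11b used for the purification, stood at 597 and 419 CPM without injury, at 1366, 1133 and 1347 CPM on day 1 and at 304, 294 and 297 CPM on day 3. Its log2 fold change was 1.34 at 1 day over uninjured (adjusted p = 0.00173, edgeR), -0.77 at 3 days over uninjured (adjusted p = 0.0165) and -2.10 at 3 days over 1 day (adjusted p = 2.57e-06). P2ry12, a purinergic receptor of microglia, was lower at 3 days than in uninjured mice (-0.90, adjusted p = 0.00139), and Tmem119 was lower at 3 days than at 1 day (-0.87, adjusted p = 0.00394). Other groups of markers moved with the times. The 4 proliferation markers summed to 39.1 to 42.3 CPM in uninjured mice, 49.3 to 63.6 at 1 day and 1162 to 1892 at 3 days. The 9 endothelial markers summed to 1255 to 1440, 543 to 649 and 1001 to 1124 CPM in the same order, and the 7 choroid plexus markers to 523 to 5505, 1.09 to 56.7 and 623 to 3566 CPM. Astrocyte markers reached 55.6 CPM, oligodendrocyte markers 110 CPM and monocyte and neutrophil markers 132 CPM at most, while neuronal and lymphocyte markers stayed at or under 8.35 and 2.09 CPM. No marker had 0 counts in all 8 libraries. The mitochondrial genome supplied 22.6% and 21.3% of reads in the uninjured libraries, 13.7%, 21.9% and 13.9% on day 1, and 22.8%, 28.9% and 30.3% on day 3. The part of these differences in the results was not tested. In such bulk samples, fewer cells of a type and less RNA per cell cannot be told apart.

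Proteasome transcripts took a larger share of the RNA at 3 days than in the other libraries. The 45 genes held 0.148% and 0.153% of all counts without injury, 0.150%, 0.161% and 0.160% on day 1, and 0.214%, 0.213% and 0.208% on day 3. The 3 libraries of 3 days lay above all others. The core particle genes summed to 311 to 320 CPM in uninjured mice, 283 to 403 at 1 day and 532 to 605 at 3 days. The regulatory particle genes summed to 642 to 659, 689 to 865 and 1059 to 1156 CPM. The immunoproteasome genes summed to 27.8 to 47.5, 40.0 to 57.1 and 40.0 to 49.4 CPM, so their ranges overlapped at all times. The 4 activators summed to 294 to 296, 351 to 381 and 376 to 460.0 CPM. Of the 41 proteasome genes, 36 (87.8%) had a log2 fold change above 0 at 3 days over uninjured, as did 49.9% of all genes tested. At 3 days over 1 day, 36 did as well, beside 51% of all genes tested. In the immunoproteasome these were 2 of 3 and 1 of 3 genes.

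**Figure D1:**
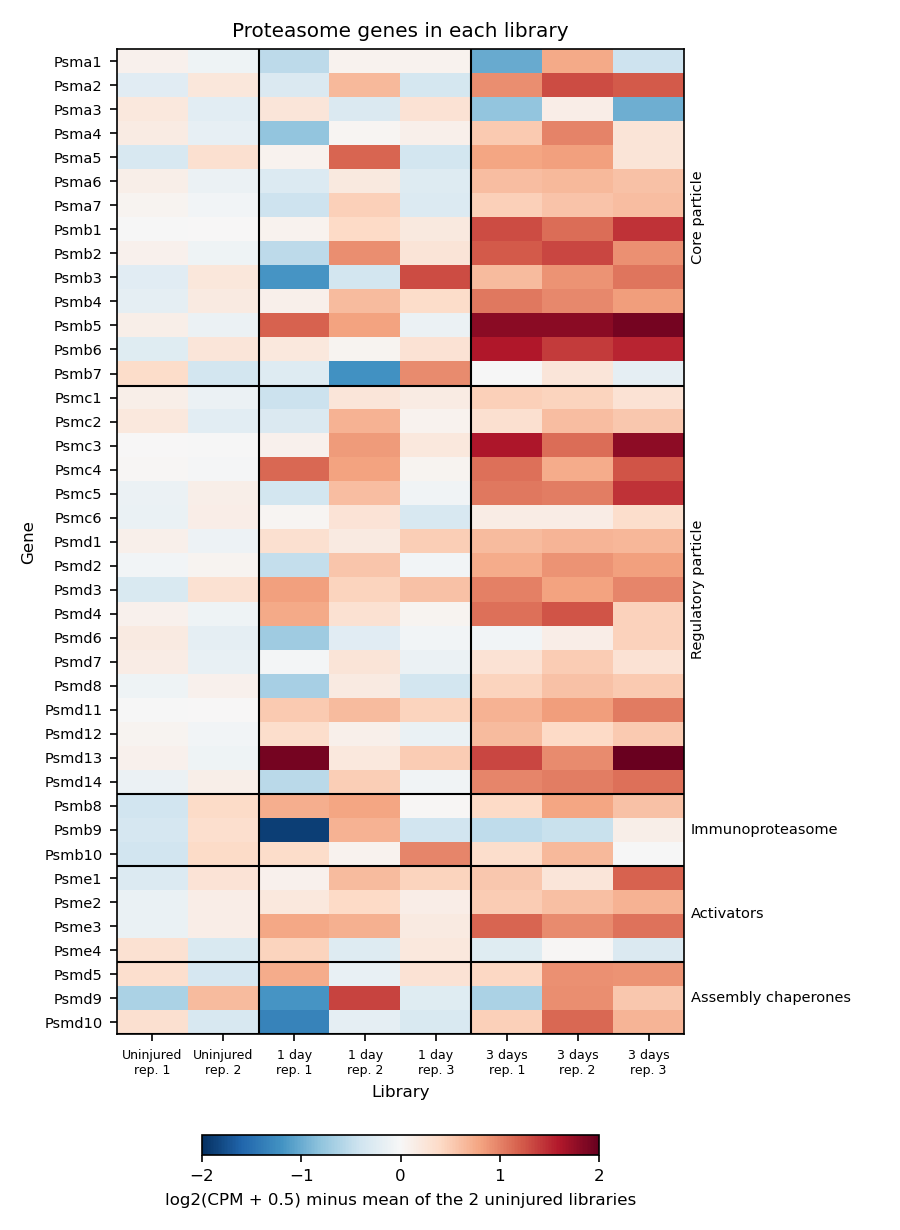
Level of each of the 41 proteasome genes (rows) in each of the 8 libraries (columns), as log2(CPM + 0.5) minus the mean of the 2 uninjured libraries, with colours clipped at 2 either way. The 3 columns of 3 days are red in most core and regulatory particle rows, Psma1, Psma3 and Psmb7 are exceptions in the core, and the immunoproteasome rows show no common colour.

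Compared per kilobase of exon, the members spanned a wide range. Among the 41 genes, Psme1, a subunit of the interferon-inducible activator, was the most abundant at 55.1 CPM per kb (mean of 8 libraries), and Psmd9, an assembly chaperone, the least abundant at 1.53 CPM per kb. The length counts all annotated exonic bases of a gene, 7248 for Psmd9, and may exceed that of its transcripts here. Without division by length, Psmd9 had 11.1 CPM and Psmd10 was the lowest of the 41 at 5.35 CPM. The median was 11.5 CPM per kb in the core, 15.1 in the regulatory particle and 5.58 in the immunoproteasome. Psme2b had 61.1 CPM per kb. Psmb11, the catalytic subunit of the thymus form, had 0 and 0 counts without injury, 1, 0 and 1 on day 1, and 1, 0 and 7 on day 3, and it was the single member too low to be tested. Psma8, the alpha subunit of the testis form, stood at 2.46 and 2.16 CPM without injury, at 10.98, 0 and 4.004 CPM on day 1 and at 1.77, 3.80 and 2.82 CPM on day 3.

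The comparison of 3 days with uninjured mice asked how proteasome genes stood 3 days after the axons were crushed. At 3 days, 8 of the 44 members tested were called higher and 0 lower, at an adjusted p under 0.05 in edgeR's quasi-likelihood test with Benjamini-Hochberg adjustment over 17390 genes. Of all genes tested, 3.47% were called, 2.49% higher and 0.983% lower. The 8 were the core genes Psma2, Psmb1, Psmb4 and Psmb6, the regulatory particle genes Psmc3, Psmc5 and Psmd11, and the activator Psme3. All 17 regulatory particle genes and 11 of 14 core genes had a log2 fold change above 0, as did 49.9% of all genes. The median log2 fold change was 0.83 in the regulatory particle, 0.76 in the core, 0.32 in the immunoproteasome and -0.002 over all genes tested. In 31 of the 41 proteasome genes the 3 libraries of 3 days all lay above both uninjured libraries, an order found in 20.1% of all genes tested, and in 1 member, Psme2b, they all lay below, an order found in 19.3%. That order held in 16 of 17 regulatory particle genes, 10 of 14 core genes and 1 of 3 immunoproteasome genes, Psmb8. Leaving out control replicate 1 left 0 calls and leaving out control replicate 2 left 1. Leaving out replicates 1, 2 and 3 of day 3 left 3, 4 and 1 calls, while the median of the members stayed between 0.55 and 0.83. Over all genes, these omissions of a library left 0.565%, 1.23%, 1.63%, 2.61% and 0.998% called, in the same order. An unadjusted p under 0.05 was reached by 22 members that were higher and 1 that was lower, beside 9.21% and 6.6% of all genes. DESeq2 called 15 and the fit to the libraries of the 2 groups alone 16, in each case with Psme2b as the single lower call. The share of all genes called was larger in these fits as well, 9.9% of those with an adjusted p in DESeq2 and 8.06% in the 2-group fit, against 3.47%.

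**Figure D2:**
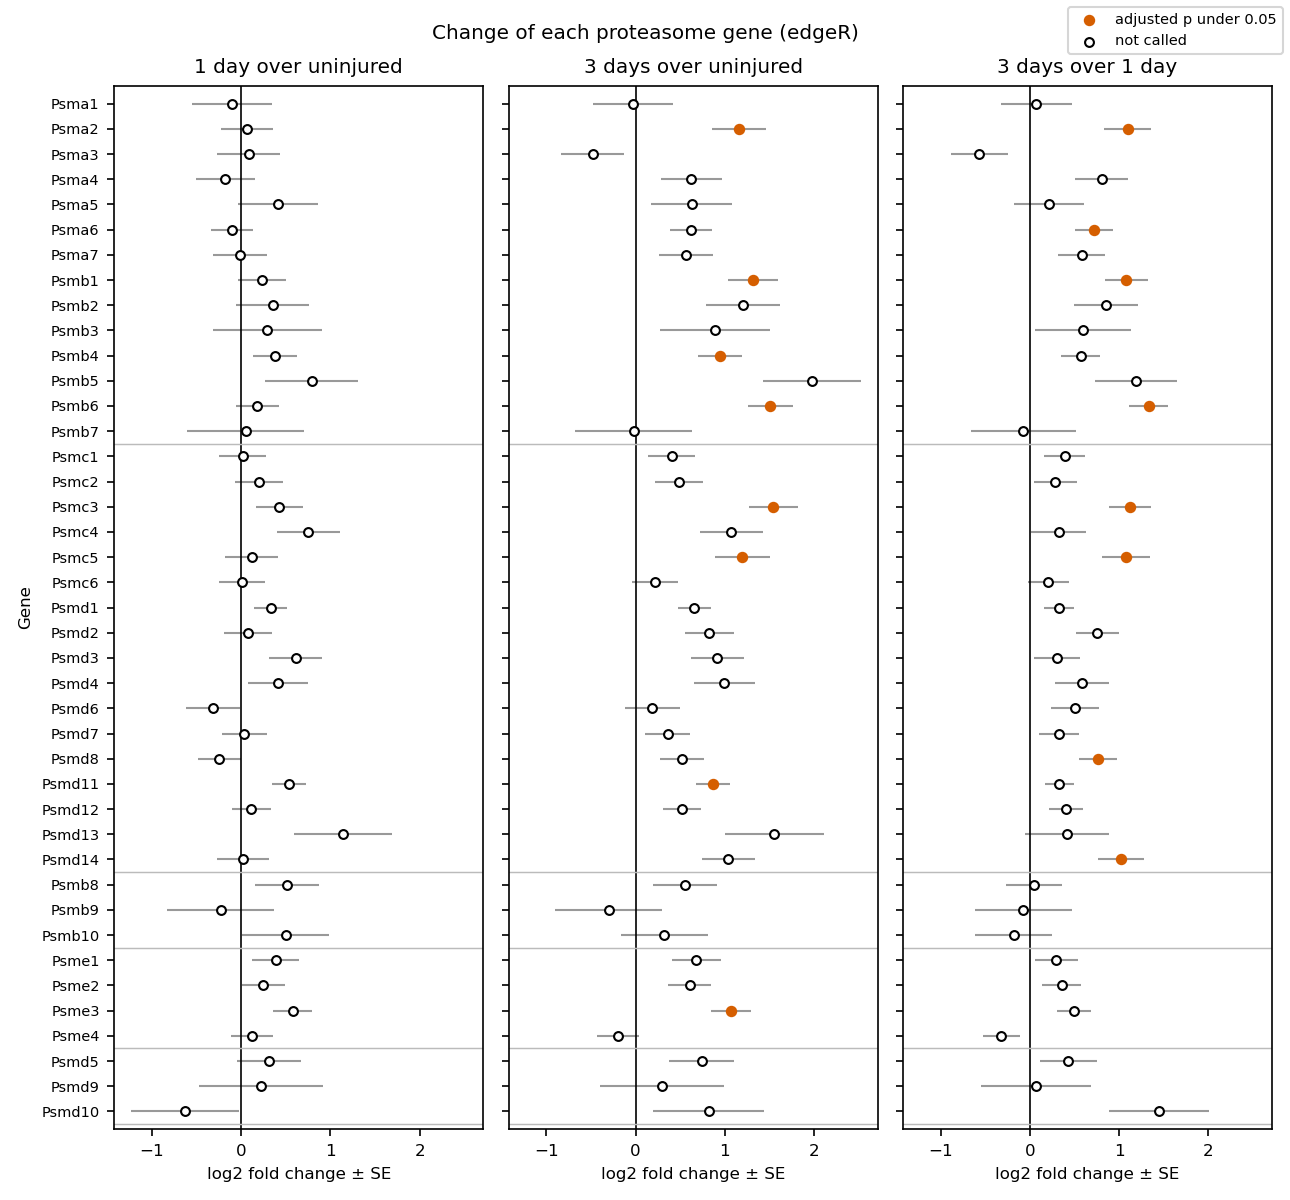
Log2 fold change (± SE) of each of the 41 proteasome genes at 1 day over uninjured, 3 days over uninjured and 3 days over 1 day. Filled points have an adjusted p under 0.05 (0, 8 and 8 genes), and in the middle panel every regulatory particle gene lies right of 0.

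The core genes varied among themselves. The 7 alpha ring genes had a median log2 fold change of 0.62 at 3 days over uninjured, the 4 structural beta genes 1.08 and the 3 constitutive catalytic genes 1.51. The difference between these medians was not tested, and the genes overlapped: Psma2 of the alpha ring had 1.16, above Psmb3 (0.89) and Psmb4 (0.95) of the beta ring, while Psmb7 had -0.022. Psmb6 (ENSMUSG00000018286) encodes the catalytic subunit that cuts after acidic residues. Psmb6 stood at 21.6 and 30.2 CPM without injury, at 29.8, 26.6 and 31.5 CPM on day 1 and at 78.7, 68.2 and 74.4 CPM on day 3. The levels at 3 days exceeded every other library by more than the spread within a group. Its mean was 73.8 ± 5.29 CPM at 3 days (SD, n = 3) against 25.9 ± 6.05 CPM in uninjured mice (SD, n = 2). The log2 fold change was 1.51 with an SE of 0.25 (adjusted p = 0.00403, edgeR). Without control replicate 1 its adjusted p was 0.114, and in the other fits that left out 1 library Psmb6 was still called.

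The promoters of Psmb6 and of Psmb5, the other catalytic gene with a large difference, are printed here because a factor known to raise proteasome genes together, NFE2L1, binds antioxidant response elements. Each shows the 250 bases before the start of the gene in RefSeq (GRCm38.p6), and capitals mark a match to the core of that element, TGACNNNGC.
Psmb6, chr11:70525107-70525356, plus strand: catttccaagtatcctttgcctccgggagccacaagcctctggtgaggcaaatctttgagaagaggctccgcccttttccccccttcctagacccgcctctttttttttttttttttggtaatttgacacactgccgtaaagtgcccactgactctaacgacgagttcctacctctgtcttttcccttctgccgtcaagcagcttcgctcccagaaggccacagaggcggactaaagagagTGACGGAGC
Psmb5, chr14:54617996-54618245, minus strand: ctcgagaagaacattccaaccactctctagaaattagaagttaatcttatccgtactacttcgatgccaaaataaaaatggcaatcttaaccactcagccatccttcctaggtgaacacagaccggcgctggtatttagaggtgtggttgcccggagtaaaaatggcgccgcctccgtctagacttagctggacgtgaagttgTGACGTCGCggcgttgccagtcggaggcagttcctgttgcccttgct
A promoter entry was found for 38 of the 45 members. The element, searched on both strands, occurred in 5 of these 38 (13.2%), namely Psmb5, Psmb6, Psmc6, Psmd12 and Psmd9, and in 11.5% of the 27025 promoters in the table. The share among members was thus near that of all genes. At 3 days over uninjured, Psmb5 and Psmb6 had log2 fold changes of 1.98 and 1.51. The other carriers of the element had smaller ones, 0.52 for Psmd12, 0.30 for Psmd9 and 0.215 for Psmc6, and none of these was called.

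Psmb5 (ENSMUSG00000022193) encodes the catalytic subunit that cuts after bulky hydrophobic residues. Psmb5 stood at 3.74 and 3.09 CPM without injury, at 8.33, 6.34 and 3.08 CPM on day 1 and at 13.1, 13.2 and 14.2 CPM on day 3. The 3 libraries of 3 days were close to each other and above all others, and those of 1 day were spread from the uninjured level upwards. Its log2 fold change at 3 days over uninjured was the largest among the 41 genes at 1.98 (SE 0.55), and it missed the threshold in edgeR (adjusted p = 0.065). It passed with DESeq2 (adjusted p = 0.00208) and limma-voom (adjusted p = 0.044). Psmb7, whose product cuts after basic residues, stood at 7.69 and 4.43 CPM without injury, at 4.83, 2.25 and 11.7 CPM on day 1 and at 5.82, 7.00 and 5.08 CPM on day 3. Its groups overlapped, with a log2 fold change of -0.022 (SE 0.66) at 3 days over uninjured.

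Psmb1 and Psmb4 encode structural subunits of the beta ring. Psmb1 stood at 18.2 and 18.6 CPM without injury, at 19.4, 24.3 and 21.3 CPM on day 1 and at 46.4, 40.4 and 50.8 CPM on day 3. The levels of 3 days stood apart from both other groups (log2 fold change over uninjured 1.32, SE 0.28, adjusted p = 0.0169, edgeR). Psmb4 stood at 29.8 and 38.1 CPM without injury, at 36.3, 52.6 and 43.6 CPM on day 1 and at 70.5, 65.7 and 60.4 CPM on day 3. Its libraries of 3 days were also the highest, while those of 1 day reached down into the uninjured range (0.95, SE 0.25, adjusted p = 0.0489). In the alpha ring, which forms the gate of the barrel, Psma2 was the single gene called. Psma2 stood at 37.5 and 51.8 CPM without injury, at 36.1, 69.2 and 34.6 CPM on day 1 and at 84.7, 109 and 104 CPM on day 3. Day 1 replicate 2 stood well above the other 1 day libraries but below all of 3 days (1.16, SE 0.30, adjusted p = 0.0492).

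Core genes that did not have a positive difference at 3 days over uninjured were Psma1, Psma3 and Psmb7, named here for that reason after their values were seen. Psma1 had 10.5, 37.3 and 16.2 CPM at 3 days, against 23.1 and 20.6 CPM in uninjured mice. Psma3 had 18.7, 36.2 and 16.4 CPM at 3 days, against 38.1 and 28.2 CPM in uninjured mice. In both genes day 3 replicate 2 was well above the other 3 day libraries. Their log2 fold changes were -0.032 (SE 0.45) and -0.48 (SE 0.35), and neither was called.

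**Figure D3:**
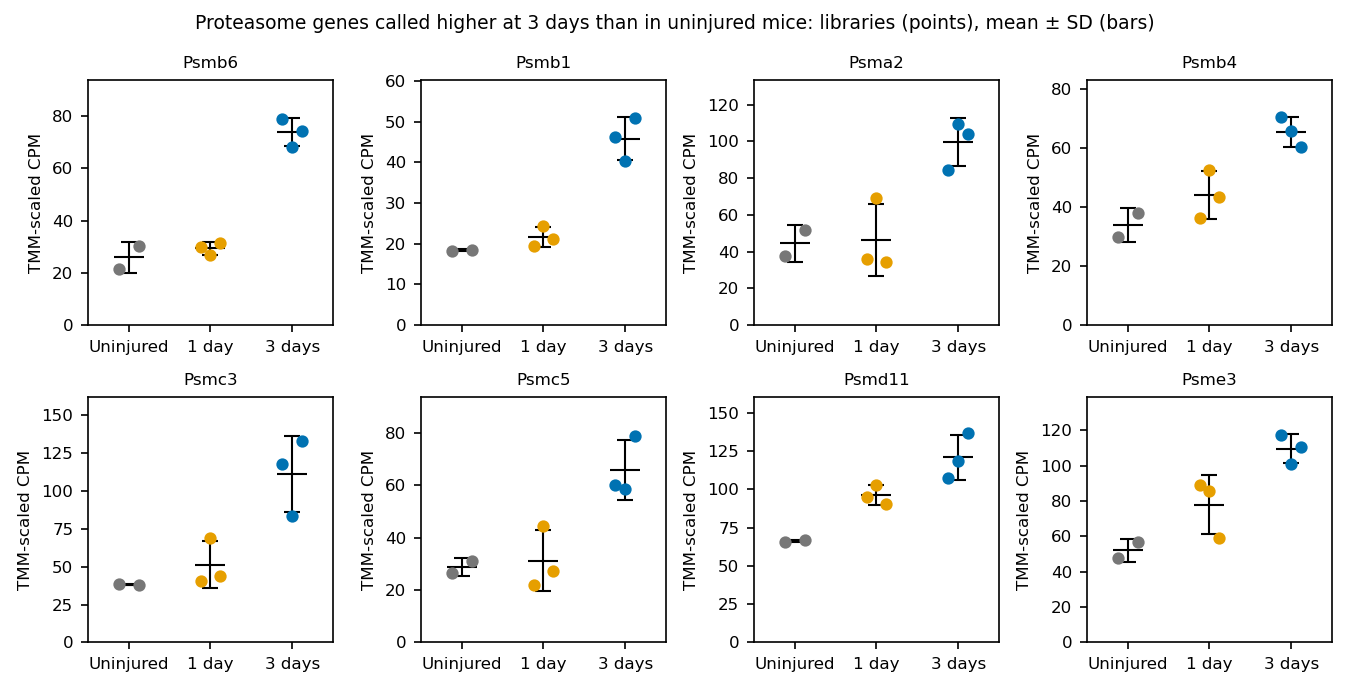
Level (CPM) in each library of the 8 proteasome genes called higher at 3 days than in uninjured mice, with the mean and SD of each time. In every panel the 3 libraries of 3 days lie above all 5 others, and Psmb6 has the lowest adjusted p (0.00403).

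In the regulatory particle, the 6 ATPases and the 11 other subunits had similar median log2 fold changes at 3 days over uninjured, 0.78 and 0.83. Psmc3 and Psmc5 encode ATPases of the ring that unfolds the substrate. Psmc3 stood at 38.5 and 37.9 CPM without injury, at 40.7, 69.3 and 44.2 CPM on day 1 and at 118, 83.8 and 133 CPM on day 3. All libraries of 3 days were above all others, although they were spread widely (log2 fold change over uninjured 1.55, SE 0.28, adjusted p = 0.00629, edgeR). Psmc3 shares 8.25% of its exonic bases with Slc39a13 on the opposite strand, and the strand setting of the counting is not given in the sources used here. Psmc5 stood at 26.3 and 31.2 CPM without injury, at 22.0, 44.4 and 27.2 CPM on day 1 and at 60.1, 58.5 and 79.0 CPM on day 3 (1.20, SE 0.31, adjusted p = 0.0475). Its 1 day libraries lay around the uninjured pair and below those of 3 days.

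Among the non-ATPase subunits, Psmd11 contributes to the lid and clamps the regulatory particle to the core. Psmd11 stood at 65.7 and 66.8 CPM without injury, at 95.0, 103 and 90.3 CPM on day 1 and at 108, 118 and 137 CPM on day 3. Its 3 groups did not overlap, and its level was higher at each time (3 days over uninjured 0.87, SE 0.19, adjusted p = 0.0198, edgeR). Psmd14 encodes the metalloprotease that cuts ubiquitin chains off the substrate. Psmd14 stood at 28.6 and 33.8 CPM without injury, at 21.2, 44.1 and 29.6 CPM on day 1 and at 61.7, 63.5 and 67.5 CPM on day 3. The libraries of 3 days were tightly grouped and above the rest, with a log2 fold change over uninjured of 1.04 (SE 0.30) that missed the threshold (adjusted p = 0.0731). Psmd8, another lid subunit, stood at 58.8 and 66.0 CPM without injury, at 38.9, 70.9 and 48.1 CPM on day 1 and at 84.9, 93.7 and 89.4 CPM on day 3. Its levels of 3 days were the highest, and 2 of its 1 day libraries were below the uninjured pair.

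Activators open the core in place of the regulatory particle. Psme3 encodes a nuclear activator that acts without ubiquitin. Psme3 stood at 47.7 and 56.8 CPM without injury, at 89.2, 85.7 and 59.0 CPM on day 1 and at 117, 101 and 110.5 CPM on day 3. All libraries of 3 days were above all of 1 day, which were above both uninjured libraries (3 days over uninjured 1.07, SE 0.22, adjusted p = 0.0155, edgeR). Psme1 and Psme2 form the interferon-inducible activator. Psme1 stood at 73.8 and 108 CPM without injury, at 94.9, 139 and 121 CPM on day 1 and at 129, 106 and 202 CPM on day 3, with overlap between the groups (0.68, SE 0.27, adjusted p = 0.214). Psme2 stood at 29.1 and 34.9 CPM without injury, at 37.0, 42.3 and 34.9 CPM on day 1 and at 45.4, 48.8 and 51.9 CPM on day 3. Its libraries of 3 days were above all others, without passing the test (0.61, SE 0.24, adjusted p = 0.222). Psme4, a large activator of the nucleus, stood at 146 and 94.5 CPM without injury, at 160, 97.8 and 135 CPM on day 1 and at 99.0, 120 and 95.9 CPM on day 3, with no separation of the groups.

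Psme2b and Psme2 had log2 fold changes of opposite sign at 3 days over uninjured, neither of which passed the test in edgeR, and the pair cannot be read apart with confidence. The coding sequences of the 2 genes are identical at 715 of 720 bases (99.3%), so reads may be split between them or dropped by the counting. Psme2b stood at 57.0 and 79.9 CPM without injury, at 46.2, 46.3 and 65.5 CPM on day 1 and at 40.1, 31.2 and 43.2 CPM on day 3. All libraries of 3 days lay below both uninjured libraries (log2 fold change -0.84, SE 0.26, adjusted p = 0.0926, edgeR). The sum of Psme2 and Psme2b was 85.5, 80.0 and 95.0 CPM at 3 days, against 86.1 and 114.8 CPM in uninjured mice, with overlap between the groups.

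At 1 day over uninjured, no member passed the test. Of 44 members tested, 0 were called by edgeR, 2 had an unadjusted p under 0.05 (Psmd11 and Psme3, both higher), and DESeq2 also called 0, with 5 at an unadjusted p under 0.05. Of all genes tested, 1.77% were called in edgeR and 4.92% of those with an adjusted p in DESeq2, and an unadjusted p under 0.05 was reached by 7.3% that were higher and 7.47% that were lower. The median log2 fold change was 0.13 in the core, 0.12 in the regulatory particle, 0.50 in the immunoproteasome and 0.061 over all genes. Without day 1 replicate 2 the regulatory particle median was -0.13. In 9 of the 41 proteasome genes all 1 day libraries were above both uninjured libraries, an order found in 14.3% of all genes, and in 0 were they all below, as in 15% of all genes. Psmd11 had the smallest p of the members (log2 fold change 0.54, SE 0.19, adjusted p = 0.177), followed by Psme3 (0.58, SE 0.22, adjusted p = 0.22).

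Between the injured groups, 8 members of 44 were called higher and 0 lower at 3 days over 1 day, while 11% of all genes tested were called, 5.24% higher and 5.75% lower. They were Psma2, Psma6, Psmb1, Psmb6, Psmc3, Psmc5, Psmd8 and Psmd14, and the first comparison shares the 3 day libraries with this one. The median log2 fold change was 0.66 in the core, 0.41 in the regulatory particle, -0.072 in the immunoproteasome and 0.022 over all genes. Psmb6 averaged 73.8 ± 5.29 CPM at 3 days and 29.3 ± 2.46 CPM at 1 day (SD, n = 3 each). The log2 fold change was 1.33 with an SE of 0.22 (adjusted p = 0.00147, edgeR), and no omission of a single library took its call away. Psmc3 followed at 1.12 (SE 0.24, adjusted p = 0.0076), Psmb1 at 1.08 (SE 0.24, adjusted p = 0.0104) and Psma2 at 1.10 (SE 0.26, adjusted p = 0.0159). Psmc5 had 1.08 (SE 0.27, adjusted p = 0.0198), Psmd14 1.02 (SE 0.26, adjusted p = 0.0213) and Psmd8 0.76 (SE 0.22, adjusted p = 0.0375). Psma6, an alpha ring gene, had 62.6, 64.2 and 61.6 CPM at 3 days, against 33.8, 46.5 and 34.0 CPM at 1 day (0.72, SE 0.21, adjusted p = 0.0419). In 20 of the 41 genes the libraries of 3 days lay above all of 1 day, an order found in 16.1% of all genes, and in 1 member, Psme2b, they all lay below, as in 13.6% of all genes. An unadjusted p under 0.05 was reached by 17 members, all higher, beside 13.1% of all genes in each direction. Leaving out replicates 1, 2 and 3 of day 1 left 3, 12 and 4 calls, and leaving out replicates 1, 2 and 3 of day 3 left 5, 4 and 1. Over all genes, these omissions left 8.27%, 13.7%, 9.01%, 6.22%, 7.56% and 4.33% called, in the same order.

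Of the 3 immunoproteasome genes, 0 were called in any comparison by edgeR, DESeq2 or limma-voom, and 0 had an unadjusted p under 0.05. Depending on the comparison, edgeR called 1.77% to 11% of all genes and limma-voom 2.02% to 9.7%. DESeq2 called 4.92% to 16.8% of those with an adjusted p. An unadjusted p under 0.05 in edgeR was reached by 6.6% to 13.1% in each direction. At such shares, 0 calls among 3 genes do not set them apart from other genes. Psmb8, whose product takes the place of Psmb5, stood at 12.3 and 21.4 CPM without injury, at 27.2, 28.5 and 16.6 CPM on day 1 and at 21.5, 28.3 and 24.5 CPM on day 3. Its levels of 3 days were all above the uninjured pair by a small margin (log2 fold change 0.56, SE 0.36, adjusted p = 0.513, edgeR). Psmb9, which takes the place of Psmb6, stood at 9.99 and 16.4 CPM without injury, at 3.12, 20.9 and 9.67 CPM on day 1 and at 8.89, 9.31 and 13.9 CPM on day 3. Its groups overlapped (-0.30, SE 0.60, adjusted p = 0.887 at 3 days over uninjured), and the 1 day libraries spanned both the lowest and the highest value. Psmb10, which takes the place of Psmb7, stood at 5.50 and 9.74 CPM without injury, at 9.66, 7.70 and 15.0 CPM on day 1 and at 9.55, 11.8 and 7.26 CPM on day 3, again with overlap (0.32, SE 0.49, adjusted p = 0.839). The median of the 3 genes at 3 days over uninjured ranged from -0.039 without control replicate 1 to 0.79 without control replicate 2. Psmb9 shares 5.79% of its exonic bases with Tap1, and Psmb8 shares 14.7% with Gm20496 and Psmb7 11.8% with Nek6, all on opposite strands.

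**Figure D4:**
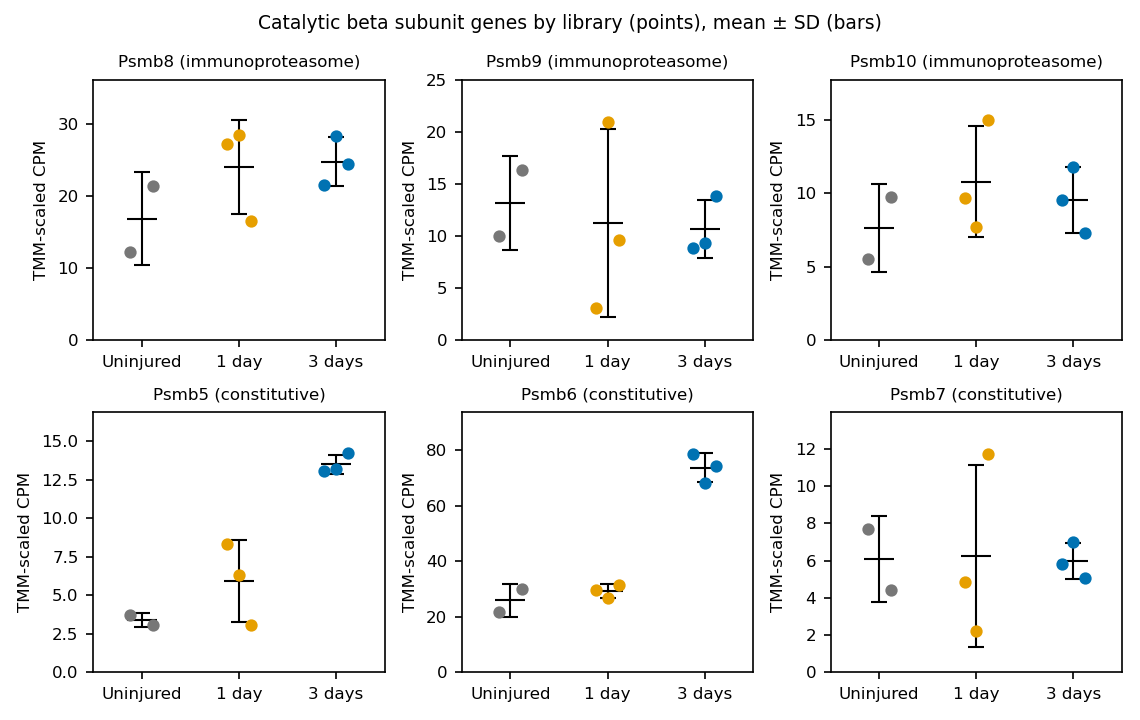
Level (CPM) of the 3 immunoproteasome genes (top) and the 3 constitutive catalytic genes each replaces (bottom) in every library, with the mean and SD of each time. Psmb5 and Psmb6 are highest in the 3 libraries of 3 days (13.1 to 14.2 and 68.2 to 78.7 CPM), and the other 4 genes overlap between 3 days and 1 day.

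The promoter of Psmb9 is shown beside those of its constitutive counterparts above, as the immunoproteasome gene with the largest spread between 1 day libraries. Capitals mark a CCAAT box on the opposite strand, which reads ATTGG here.
Psmb9, chr17:34187331-34187580, minus strand: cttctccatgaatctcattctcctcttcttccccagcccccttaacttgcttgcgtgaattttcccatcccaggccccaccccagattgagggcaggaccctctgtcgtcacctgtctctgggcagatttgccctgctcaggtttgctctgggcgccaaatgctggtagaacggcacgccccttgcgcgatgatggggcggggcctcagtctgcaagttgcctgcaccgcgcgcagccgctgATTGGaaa
The antioxidant core TGACNNNGC was found in 0 of the 3 immunoproteasome promoters and 2 of the 11 core particle promoters with an entry. The core of the interferon-stimulated response element, searched on both strands, was in 0 of 3 immunoproteasome promoters, in 3 of all 38 members (7.89%; Psmb3, Psmd4 and Psmd9) and in 3.46% of all promoters. CCAAT, also on both strands, was in 15 of 38 members (39.5%) and 37.5% of all promoters. A match is a description of the letters in this window alone.

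Set against the genes they replace, the immunoproteasome genes made up a smaller part of the catalytic transcripts at 3 days. Per kilobase of exon, Psmb8, Psmb9 and Psmb10 held 34.8% and 44.2% of the summed level of the 6 catalytic genes without injury, 35.4%, 46.0% and 40.8% on day 1, and 19.8%, 25.1% and 21.2% on day 3. The 3 libraries of 3 days lay below all 5 others, with means of 39.5 ± 6.65% in uninjured mice (SD, n = 2), 40.7 ± 5.31% at 1 day (SD, n = 3) and 22.0 ± 2.75% at 3 days (SD, n = 3). Without division by length the means were 50.7%, 52.4% and 32.6% in the same order. Psmb6 was the most abundant of the 6 genes per kilobase.

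Pair by pair, the ratios differed in how far they separated the times. Psmb8 over Psmb5, per kilobase, was 0.437, 0.571 and 0.459 at 3 days, against 0.874 and 1.84 in uninjured mice. Those of 3 days were the lowest of all libraries, and the log2 ratio differed from that of uninjured mice by -1.39 (exact two-sided permutation p = 0.2). Against 1 day, where the ratio was 0.867, 1.20 and 1.43, the log2 difference was -1.23 (exact two-sided permutation p = 0.1). Psmb9 over Psmb6 was 0.0578, 0.0698 and 0.0954 at 3 days, against 0.236 and 0.278 in uninjured mice, again without overlap (log2 difference -1.82, exact two-sided permutation p = 0.2). Its 1 day values of 0.0534, 0.402 and 0.157 overlapped both other groups. Psmb10 over Psmb7 was 3.29, 3.37 and 2.87 at 3 days, against 1.44 and 4.41 in uninjured mice, which enclosed them. The 12 ratio tests had Benjamini-Hochberg adjusted p-values of 0.8 or more. In this two-sided test, 3 against 2 libraries cannot reach an exact p under 0.2, nor 3 against 3 one under 0.1. At 3 days over uninjured, Psmb8 over Psmb5 and Psmb9 over Psmb6 were at that limit. Groups of this size are too small for these tests to decide whether a ratio differed. Over the coding sequence, Psmb8 and Psmb5 are 67.6% identical, Psmb9 and Psmb6 66.4%, and Psmb10 and Psmb7 63.4%.

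**Figure D5:**
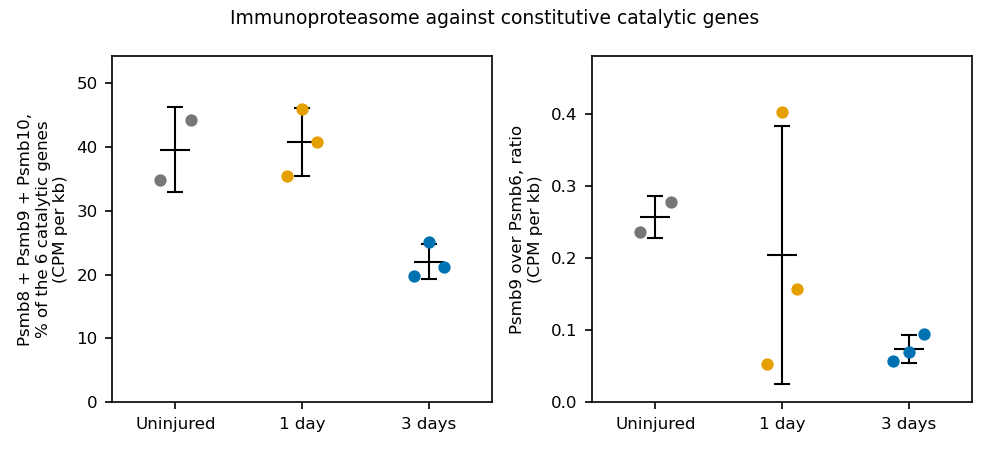
Left, the share of Psmb8, Psmb9 and Psmb10 in the summed level (CPM per kb) of the 6 catalytic genes in each library. Right, the ratio of Psmb9 to Psmb6 (CPM per kb). Bars give the mean and SD of each time, and the share at 3 days (19.8 to 25.1%) lies below every other library.

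The 3 assembly chaperones help to build the regulatory particle and leave it when it is complete. Psmd5, Psmd9 and Psmd10 had 0 calls in edgeR in the 3 comparisons, where 1.77% to 11% of all genes were called. Their median log2 fold change was 0.74 at 3 days over uninjured. Psmd10, which is also known as an oncoprotein, had 6.47, 10.6 and 7.50 CPM at 3 days, against 1.48, 3.93 and 3.57 CPM at 1 day. These groups did not overlap, but the test was not passed (1.45, SE 0.56, unadjusted p = 0.0208, adjusted p = 0.114, edgeR), although DESeq2 called it, as it did 16.8% of all genes with an adjusted p. Psmc3ip, the non-subunit caught by the rule, had 4.05, 4.69 and 9.28 CPM at 3 days, against 1.34 and 1.49 CPM in uninjured mice. Its log2 fold change of 2.08 (SE 0.91) was not called (adjusted p = 0.273).

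Further subunits of the regulatory particle carry other symbols and lie outside the rule. Of Adrm1, Sem1, Uchl5 and Usp14, 0 were called by edgeR at 3 days over uninjured, beside 3.47% of all genes. There DESeq2 called Uchl5 and Sem1, as it did 9.9% of all genes with an adjusted p. The same 2 had an unadjusted p under 0.05 in edgeR, both higher, beside 9.21% of all genes. The median log2 fold change of the 4 genes was 0.81, and Uchl5 and Sem1 were called higher at 3 days over 1 day, as were 5.24% of all genes. Uchl5, a deubiquitinase of the regulatory particle, had 29.0, 27.3 and 37.8 CPM at 3 days, against 12.7, 12.4 and 10.9 CPM at 1 day (1.39, SE 0.29, adjusted p = 0.0072, edgeR). Sem1, a small subunit of the lid, had 41.3, 48.2 and 47.8 CPM at 3 days, against 19.1, 29.8 and 16.8 CPM at 1 day (1.06, SE 0.29, adjusted p = 0.0284). In both genes, named here for their calls, the 3 day libraries lay above all of 1 day. That order held in 3 of the 4 genes and in 16.1% of all genes tested. Of 13 assembly and control genes, 0 were called in any comparison by edgeR, where 1.77% to 11% of all genes were called. At 3 days over uninjured, an unadjusted p under 0.05 was reached by 4 that were higher and 1 that was lower, beside 9.21% and 6.6% of all genes. In order of p, the higher ones were Sel1l, Pomp, Psmg2 and Nfe2l1, and the lower one was Ngly1 (log2 fold change -1.04, SE 0.48). DESeq2 called Psmg2, a chaperone of core assembly, alone among the 13. Nfe2l1, which encodes the NFE2L1 factor named above, had 149, 122 and 158 CPM at 3 days, against 113 and 85.7 CPM in uninjured mice (0.53, SE 0.21, adjusted p = 0.206). Nfe2l2, of the same list, had its highest mean at 1 day. Its log2 fold change was 0.48 at 1 day over uninjured (adjusted p = 0.156, edgeR) and 0.12 at 3 days over uninjured. At 3 days over 1 day it was -0.36 (adjusted p = 0.115). A part of either factor in the levels of proteasome genes was not tested.

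Upstream of the proteasome, 3 of the 15 ubiquitin supply and receptor genes tested were called higher at 3 days over uninjured and 0 lower, where 2.49% of all genes were called higher and 0.983% lower. Rps27a, which encodes ubiquitin fused to a ribosomal protein, had 106, 107 and 109.8 CPM at 3 days, against 38.7 and 51.9 CPM in uninjured mice (1.25, SE 0.24, adjusted p = 0.00924, edgeR). Uba1, the enzyme that activates ubiquitin, had 253, 213 and 249 CPM at 3 days, against 132 and 153 CPM in uninjured mice (0.74, SE 0.16, adjusted p = 0.0201). Vcp, a segregase that extracts ubiquitin-tagged proteins, had 115, 114 and 119 CPM at 3 days, against 69.6 and 60.1 CPM in uninjured mice (0.84, SE 0.19, adjusted p = 0.0273). In all 3 genes, named here for their calls, the 3 day libraries lay above both uninjured libraries. That order held in 9 of the 15 genes of the list and in 20.1% of all genes tested. The median of the list was 0.42 at 1 day and 0.42 at 3 days over uninjured. At 1 day, 0 of its genes were called by edgeR or DESeq2. Of all genes, edgeR called 1.77% and DESeq2 4.92% of those with an adjusted p. An unadjusted p under 0.05 in edgeR was reached by 6 of the 15, all higher, beside 7.3% of all genes higher and 7.47% lower. All 15 had a log2 fold change above 0 at 1 day, as did 54% of all genes.

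Downstream, the 11 genes of MHC class I peptide loading had no common direction, with a median log2 fold change of 0.24 at 3 days over uninjured. Calr, a chaperone of the loading complex, was called higher at 3 days over uninjured (1.30, SE 0.16, adjusted p = 0.000488, edgeR). It was already called higher at 1 day over uninjured (0.91, SE 0.16, adjusted p = 0.01), as were 0.61% of all genes tested. Its difference at 3 days over 1 day was not called (0.385, SE 0.14, adjusted p = 0.0951). H2-K1, a class I heavy chain, stood at 747 and 751 CPM without injury, at 1232, 1071 and 1036 CPM on day 1 and at 478, 550.2 and 434 CPM on day 3. Its log2 fold change was -0.62 at 3 days over uninjured (SE 0.15, adjusted p = 0.0312) and -1.19 at 3 days over 1 day (SE 0.13, adjusted p = 0.000106). Of 12 interferon axis genes, 0 were called by edgeR at 3 days over uninjured, beside 3.47% of all genes. There their median was -0.30, and 2 had an unadjusted p under 0.05, both lower, beside 6.6% of all genes. DESeq2 called Ifngr1, as it did 9.9% of all genes with an adjusted p. At 3 days over 1 day, 4 of the 12 were called lower and 0 higher, where 5.75% of all genes were called lower and 5.24% higher. They were the receptor gene Ifngr1 (-1.03, SE 0.21, adjusted p = 0.00679), the receptor kinases Jak1 (-0.78, SE 0.13, adjusted p = 0.00151) and Jak2 (-0.69, SE 0.15, adjusted p = 0.00967), and the factor Irf8 (-0.58, SE 0.17, adjusted p = 0.0417).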

How the data were processed

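Per the labels' protocols, RNA from a micro-scale kit was amplified linearly and made into cDNA libraries. The authors deposited whole-number counts of reads per gene, with no normalization. The submitters' processing notes list FastQC, STAR, HTSeq and mm9. Tool versions and strand setting: not given in the sources used here.

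GENCODE M21 supplied a symbol for 25925 of 26062 IDs (the unmatched ones held 0.127% of reads), exon lengths and overlaps. RefSeq GRCm38.p6 supplied promoters. Neither uses mm9, so the files' own genes are given without positions. The members, lists and tests were chosen with earlier results of these data known.

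The main test was edgeR 4.0.16 (R 4.3.3): filterByExpr, leaving 17390 genes, TMM scaling and 1 robust quasi-likelihood model with a mean for each of the 3 groups. Calls needed an adjusted p (Benjamini-Hochberg, all 17390 genes) under 0.05. Each SE was obtained as the log2 fold change over the square root of F. The common biological coefficient of variation was estimated at 51.1%, and the SE of each gene gives its own precision. CPM are TMM-scaled and were divided by exon length only where stated. Ratios were tested with SciPy 1.17.1. Coding sequences (longest reading frame) were aligned with Biopython 1.88. The edgeR step was run on counts simulated from its own fitted spread with independent libraries. Such a run cannot show whether that spread is right for these libraries, nor what pooling of mice or a mixture of cells does. Replicates differed beyond sampling noise (chi-square per degree of freedom from 31.4 up to 64.8), so none were merged.

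Alternatives were DESeq2 1.42.0, voom in limma 3.58.1, RLE or no scaling, no filter, fits to 2 groups, a replicate block and omission of each library. Omission of mitochondrial genes was chosen after seeing the data. Named genes were both sets of 3 catalytic genes, the activators, Psmd10, Psmd11, Psmd14, up to 6 called genes per class with the smallest p, the members of highest and lowest level per kilobase, and up to 3 genes per other list with the smallest p. The few others are named as chosen after their values were seen or for a call.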

Additional observations from a re-analysis of the deposited data

Results flagged for a closer look

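Proteasome genes whose level at 3 days differed from that at 1 day in the test of that difference (adjusted p under 0.05, edgeR) were the core genes Psmb6 (log2 fold change 1.33), Psma2 (1.10), Psmb1 (1.08) and Psma6 (0.72) and the regulatory particle genes Psmc3 (1.12), Psmc5 (1.08), Psmd14 (1.02) and Psmd8 (0.76). All 8 were higher at 3 days. Subunit genes outside the symbol rule that met the same test were Uchl5 (1.39) and Sem1 (1.06), also higher. Rps27a (0.79) and Pdia3 (0.48), which encodes a disulfide isomerase of the MHC class I loading complex, were higher at 3 days too. The class I heavy chain genes H2-K1 (-1.19) and H2-D1 (-0.87), the receptor gene Ifngr1 (-1.03), the kinases Jak1 (-0.78) and Jak2 (-0.69) and the factor Irf8 (-0.58) were lower at 3 days than at 1 day. The causes of these differences were not tested.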

How the results depend on the processing

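At 1 day over uninjured, 0 members were called under every alternative. At 3 days, all calls of members were higher, apart from Psme2b with DESeq2, without the filter, in the 2-group fit and without day 1 replicate 2. Psmb6 kept its calls under every alternative except at 3 days over uninjured without control replicate 1. The median of all genes moved with library size alone from -0.002 in the TMM scaling to -0.15 at 3 days over uninjured, and the members lay above it under both. The causes of the changes below were not tested. With 2 uninjured libraries, leaving out either assumes that the remaining library varies like the injured groups, and the SE at 3 days over uninjured was 0.66 for Psmb7 and 0.91 for Psmc3ip, which have few counts, against 0.19 for Psmd11. With DESeq2, calls numbered 881 genes at 1 day over uninjured, 15 members at 3 days over uninjured, 1375 genes at 3 days over uninjured and 3099 genes at 3 days over 1 day. Medians were -0.028 for all genes at 1 day over uninjured, -0.033 for all genes at 3 days over uninjured, 0.069 for all genes at 3 days over 1 day. Signs changed for Psmd14 (-0.017) and Nfe2l1 (-0.0062) at 1 day over uninjured. With RLE size factors, calls numbered 5 members at 3 days over uninjured. Medians of log2 fold changes were 0.028 for all genes at 1 day over uninjured, -0.04 for all genes at 3 days over uninjured. The sign of uncalled genes changed for Psmd14 (-0.017) and Nfe2l1 (-0.0061) at 1 day over uninjured. With library size alone, calls numbered 4 members at 3 days over uninjured. Medians were 0.054 for the members, 0.19 for the activators and -0.056 for all genes at 1 day over uninjured, 0.49 for the members, 0.48 for the activators and -0.15 for all genes at 3 days over uninjured, -0.009 for all genes at 3 days over 1 day. Reversed, uncalled values were those of Psmb7 (-0.021), Psmd14 (-0.12), Psma2 (-0.089), Psmc5 (-0.027), Psma3 (-0.019), Pdia3 (-0.024) and Nfe2l1 (-0.10) at 1 day over uninjured. With limma-voom, medians of log2 fold changes were 0.093 for the members and -0.028 for all genes at 1 day over uninjured, -0.034 for all genes at 3 days over uninjured, 0.46 for the members and 0.10 for all genes at 3 days over 1 day. Signs changed for Psmb7 (-0.12), Psmd14 (-0.047) and Psma2 (-0.021) at 1 day over uninjured, Psmb7 (0.031) at 3 days over uninjured, Psmb9 (0.27), Psmb7 (0.15) and Psma1 (-0.14) at 3 days over 1 day. Without mitochondrially encoded genes, medians were 0.14 for the members and 0.005 for all genes at 1 day over uninjured, 0.46 for the members and 0.074 for all genes at 3 days over 1 day. The sign of uncalled genes changed for Psmb7 (-0.0005), Psmd14 (-0.038) and Nfe2l1 (-0.028) at 1 day over uninjured. Without the filter on low counts, medians of log2 fold changes were -0.042 for all genes at 1 day over uninjured, 0.60 for the members and -0.056 for all genes at 3 days over uninjured, 0.073 for all genes at 3 days over 1 day. Reversed, uncalled values were those of Psmd14 (-0.031) and Nfe2l1 (-0.021) at 1 day over uninjured. In the 2-group fits, calls numbered 110 genes at 1 day over uninjured, 16 members at 3 days over uninjured and 1345 genes at 3 days over uninjured. Medians were 0.13 for the members and 0.013 for all genes at 1 day over uninjured, 0.007 for all genes at 3 days over 1 day. Signs changed for Psmb7 (-0.0075), Psmd14 (-0.043), Psma2 (-0.0004) and Nfe2l1 (-0.033) at 1 day over uninjured. With the replicate number as a block, calls numbered 4 members at 3 days over uninjured. Medians of log2 fold changes were 0.001 for all genes at 1 day over uninjured, -0.032 for all genes at 3 days over uninjured, 0.085 for all genes at 3 days over 1 day. The sign of uncalled genes changed for Psmb7 (-0.40), Psmd14 (-0.024) and Sem1 (0.045) at 1 day over uninjured, Psmb9 (0.21), Psmb7 (0.25) and Psma1 (-0.039) at 3 days over 1 day. Deviations of libraries from their group mean correlated at -0.066 to 0.092 where the replicate number was the same and at -0.092 to 0.057 where it differed. The deviations of the 2 uninjured libraries mirror each other, so these values cannot settle whether libraries were paired. With each library left out in turn, calls ranged over 39 to 368 genes at 1 day over uninjured, 0 to 12 members and 108 to 982 genes at 3 days over uninjured, 1 to 12 members and 747 to 2362 genes at 3 days over 1 day. The median at 1 day over uninjured was 0.087 to 0.24 for the members, -0.022 to 0.083 for all genes, 0.14 to 0.97 for the immunoproteasome, 0.23 to 0.54 for the activators and -0.13 to 0.29 for the regulatory particle. The median at 3 days over uninjured was 0.55 to 0.83 for the members, 0.42 to 0.86 for the activators, -0.06 to 0.059 for all genes, 0.69 to 1.05 for the core and -0.039 to 0.79 for the immunoproteasome. The median at 3 days over 1 day was -0.001 to 0.053 for all genes, 0.38 to 0.54 for the members and 0.15 to 0.43 for the activators. Sign changes at 1 day over uninjured occurred for Psmb6 (-0.046 to 0.44), Psmd14 (-0.34 to 0.24), Psma2 (-0.38 to 0.31), Psmc5 (-0.27 to 0.31), Psma6 (-0.32 to 0.013), Psmb9 (-1.08 to 0.21), Psmb7 (-0.77 to 0.50), Psme4 (-0.15 to 0.47), Psma3 (-0.12 to 0.31), Sem1 (-0.35 to 0.36), Pdia3 (-0.037 to 0.23), Nfe2l1 (-0.16 to 0.23), Psma1 (-0.25 to 0.075) and Psmc3ip (-0.75 to 0.23). Sign changes at 3 days over uninjured occurred for Psmb10 (-0.039 to 0.79), Psmb7 (-0.37 to 0.42), Psme4 (-0.47 to 0.14), Psma1 (-0.76 to 0.30), Psmb9 (-0.62 to 0.10) and Irf8 (-0.46 to 0.011). Sign changes at 3 days over 1 day occurred for Psma1 (-0.60 to 0.40), Psmb9 (-0.52 to 0.73), Psmb8 (-0.17 to 0.17), Psmb10 (-0.37 to 0.13), Psmb7 (-0.47 to 0.75) and Psme1 (-0.008 to 0.48). Without length division, the share of the immunoproteasome genes was 50.7% in uninjured mice, 52.4% at 1 day and 32.6% at 3 days.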
